A study of Mus musculus with 72 samples.

Results

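Gastrocnemius from WT mice was compared at 40 weeks of age with gastrocnemius from *Bmal1*-KO mice that had been given *Bmal1* back in muscle (KO+AAV). The rule took the 5 WT and the 5 KO+AAV libraries of that age, 10 of the 72 samples in the series. The comparison asks which transcripts still differ from WT in older muscle after *Bmal1* has been given back in part. In younger mice the study found BMAL1 protein in KO+AAV muscle at only a fraction of the WT level. Whether a remaining difference from WT reflects this lower level was not tested. The WT mice were littermates of the knockouts, and all animals were male. Vector injection is described in the study for homozygous knockouts only. An effect of the vector itself therefore cannot be told apart in this comparison. The KO+AAV mice lacked *Bmal1* in the whole body and had received, at postnatal day 5, an AAV9 vector with HA-tagged mouse *Bmal1* cDNA under CK6, a constitutive promoter active in muscle, so that other organs and the non-muscle cells of the muscle remained without *Bmal1*. Both groups were collected at ZT1, 1 hour after lights on, at a single time of day, and their poly(A) libraries were sequenced at 1 site, Novogene. The 5 KO libraries of the same age and site, from *Bmal1*-KO mice without the *Bmal1* vector, are given beside them.

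BMAL1, the protein of *Arntl*, pairs with CLOCK or its homolog NPAS2, binds E-box sequences, and drives genes of the *Per* and *Cry* families, whose products repress the pair. A second loop runs through the nuclear receptors REV-ERBα and REV-ERBβ (*Nr1d1* and *Nr1d2*), which repress *Arntl*, *Clock* and *Npas2*, and the ROR receptors, which act on the same sites in the opposite direction. The PAR bZIP factors DBP, TEF and HLF carry the rhythm on to further genes through D-box sequences, where NFIL3 represses. In skeletal muscle this clock is known for its control of glucose uptake, fuel choice and sarcomere genes such as *Tcap*.

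Reads counted on genes ranged from 9397642 to 13022994 per library in WT (median 10936247), from 10458393 to 13610317 in KO+AAV (median 12116697) and from 9325122 to 12652064 in KO (median 10482000). Values below are counts divided by 1 size factor per library (normalized counts), and differences are WT minus KO+AAV on the log2(normalized count + 1) scale, so that a positive value is higher in WT. Tests are limma's, with a Benjamini-Hochberg adjusted *P* under 0.05 as the threshold, and a gene is called where it passed. Skeletal muscle identity genes were abundant in every library, with all 12 detected in all 3 groups and a summed normalized count from 2415240 to 3304160 in WT and from 2142430 to 2897570 in KO+AAV muscle. One KO+AAV library, replicate 2, stood apart, with correlations of 0.947 to 0.955 with the other 4, and KO replicate 2 stood further apart, with 0.917 to 0.930. Where leaving out one of them moved a value clearly, the value without it is given. The labels list each library as a separate sample.

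Of 16199 genes tested, 2018 were called (12.5%), 980 of them higher in WT (6.05%) and 1038 lower (6.41%). At the study's own limit of *P* under 0.01 without adjustment there were 2364 DEGs (14.6%), 1157 higher (7.14%) and 1207 lower in WT (7.45%). For 1895 genes (11.7%) the 5 WT and the 5 KO+AAV values did not overlap, WT lying above for 5.57% and below for 6.13% of the genes tested, and 1398 genes were both called and without overlap. The median difference over all genes was -0.00, and the median size of a called difference was 0.74. More than a 2-fold difference was seen for 721 called genes, 356 higher and 365 lower in WT, and more than a 4-fold difference for 87 and 133.

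*Arntl* is the targeted gene, on chromosome 7 (113207465 to 113314126, plus strand, GRCm38). Its normalized counts were 608, 589, 573, 571 and 479.9 in the WT libraries and 298, 268, 317, 359 and 313 in KO+AAV. The groups did not overlap, and WT was 1.81-fold higher. The difference was 0.86 (SE 0.20, adjusted *P* = 0.0043, limma), and an exact permutation test of the 10 libraries gave *P* = 0.00794, two-sided, the smallest that 252 arrangements allow. Reads on *Arntl* in KO+AAV muscle can come from the transcript of the knockout allele or from the vector's cDNA, and these cannot be told apart in gene counts. The KO libraries had 381, 1039, 395, 312 and 308, so the *Arntl* count did not separate KO+AAV from KO muscle (KO+AAV minus KO -0.48, adjusted *P* = 0.41, and -0.16 without KO replicate 2, adjusted *P* = 0.75, limma).

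*Npas2*, which encodes a partner of BMAL1, was the clock gene furthest below KO+AAV in WT muscle. It had 41.5, 26.3, 30.1, 17.2 and 34.4 in WT against 149.8, 132, 116, 136 and 168 in KO+AAV, a difference of -2.24 (SE 0.23, adjusted *P* = 5.1e-08, limma). The KO level was 181 to 307. *Clock*, the other partner, was also lower in WT, with 741, 717, 669, 807 and 635 against 1081, 1180.3, 1043, 740.1 and 946 (-0.47, adjusted *P* = 0.015, limma), but KO+AAV replicate 4 lay within the WT range. Without KO+AAV replicate 2 the difference in *Clock* was -0.41 with an adjusted *P* of 0.052. *Arntl2*, a paralog of *Arntl*, was higher in WT by 0.97 (adjusted *P* = 0.030, limma), with overlapping groups, and its call was lost in 12 of 22 alternative analyses, among them those without WT replicate 1, 4 or 5 or without KO+AAV replicate 1 or 3 (0.74 to 0.94).

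Among the 8 clock repressors, 2 were called, both higher in WT, beside 6.05% of all genes called higher. *Per3* had 357, 268, 313, 433 and 394 in WT and 107, 168, 108, 160.2 and 95.9 in KO+AAV, a difference of 1.48 (SE 0.35, adjusted *P* = 0.0049, limma). Every KO+AAV library lay between the WT libraries and the KO libraries, which had 3.58 to 30.3. *Bhlhe40*, which encodes the repressor DEC1, was higher in WT by 1.37 (adjusted *P* = 1.2e-05, limma), with 1359.9 to 2242 in WT and 618 to 816 in KO+AAV. The other repressors were not called. *Per1* was scattered in both groups, from 251 to 1112 in WT and from 277 to 1453 in KO+AAV (0.07, adjusted *P* = 0.96), and *Per2* (0.04) and *Cry1* (-0.13) had adjusted *P* of 0.93 and 0.58. *Cry2* was at 638 to 893 in WT and at 756 to 1067 in 4 KO+AAV libraries, with 2515 in replicate 2 (-0.52, adjusted *P* = 0.38, and -0.22 without that library, adjusted *P* = 0.75, limma).

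Transcripts of REV-ERBα and REV-ERBβ were both higher in WT. *Nr1d1* had 2611, 2127, 2690.2, 3356 and 2540.0 in WT and 959.5, 1126, 672, 922 and 640.0 in KO+AAV, a difference of 1.64 (SE 0.17, adjusted *P* = 3.7e-08, limma). Its KO level, 605 to 727, overlapped that of KO+AAV, and the difference between these 2 groups was 0.32 (adjusted *P* = 0.53, limma). *Nr1d2* had 1787, 1748, 1855, 1856 and 1557 in WT, 659.9, 1018, 500.3, 790.4 and 527 in KO+AAV, and 143 to 307 in KO. It was thus lower than in WT (1.38, adjusted *P* = 4.4e-06) and higher than in KO (1.74, adjusted *P* = 9.4e-07, and 1.81 without KO replicate 2), with no overlap between any 2 groups. *Rora*, which encodes a ROR receptor, was not called (0.54, adjusted *P* = 0.24), and without KO+AAV replicate 2, which had 3142 against 919.6 to 1387 in the other 4, it was called higher in WT (0.85, adjusted *P* = 0.035). In the annotation, 8.5% of *Nr1d1* overlaps *Thra* on the other strand, and the strand setting of the counting is not given in the sources used here.

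All 3 PAR bZIP factors were higher in WT. *Dbp* had 560.4, 615, 703, 877 and 675 in WT and 266, 115, 259.6, 475 and 235 in KO+AAV (1.46, SE 0.31, adjusted *P* = 0.0013, limma), and *Hlf* had 419.6, 321, 326, 383 and 213 against 151, 73.0, 86.5, 134 and 88.7 (1.65, SE 0.27, adjusted *P* = 7.0e-05, limma). For both genes every KO+AAV value lay below every WT value and above every KO value (32.2 to 92.8 and 12.5 to 31.7). *Tef* was 1.73-fold higher in WT, at 4647 to 5958 against 2599 to 3641 (0.79, adjusted *P* = 6.0e-05, limma). *Nfil3*, which encodes the repressor at D-boxes, was lower in WT (-0.89, adjusted *P* = 0.025, limma), with overlapping groups. Its call was lost without WT replicate 1, 4 or 5 or KO+AAV replicate 2 or 5 (-0.82 to -0.78). *Dbp* overlaps *Sphk2* on the other strand over 18% of its length.

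Promoter sequence is shown for *Per3* and *Tef*, because both were called higher in WT and carry a clock motif in the RefSeq window of 300 bases, from 250 before to 50 after the start of transcription. Sequences are 5′ to 3′ on the gene's strand, from RefSeq on GRCm38.p6, and capitals mark the motif. The *Per3* window, chr4:151044616-151044915 on the minus strand, holds the D-box letters TTATGTAA at 205 and at 158 bases before the start.

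Per3: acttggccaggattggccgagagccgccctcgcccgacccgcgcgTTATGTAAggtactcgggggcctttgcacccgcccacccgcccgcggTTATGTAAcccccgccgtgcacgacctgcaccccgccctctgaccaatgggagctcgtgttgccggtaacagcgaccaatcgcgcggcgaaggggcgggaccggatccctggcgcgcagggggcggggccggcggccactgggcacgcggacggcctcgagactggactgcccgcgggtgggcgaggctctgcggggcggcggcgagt

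*Tef* has windows at 2 starts on the plus strand, chr15:81802423-81802722 and chr15:81811164-81811463, each with the E-box letters CACGTG, at 127 and at 138 bases before the start.

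Tef, first start: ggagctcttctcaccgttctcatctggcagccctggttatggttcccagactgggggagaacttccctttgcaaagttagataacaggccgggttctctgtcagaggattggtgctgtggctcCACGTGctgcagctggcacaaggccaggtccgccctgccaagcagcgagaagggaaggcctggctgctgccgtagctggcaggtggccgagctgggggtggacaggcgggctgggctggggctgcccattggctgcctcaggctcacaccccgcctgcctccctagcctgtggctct

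Tef, second start: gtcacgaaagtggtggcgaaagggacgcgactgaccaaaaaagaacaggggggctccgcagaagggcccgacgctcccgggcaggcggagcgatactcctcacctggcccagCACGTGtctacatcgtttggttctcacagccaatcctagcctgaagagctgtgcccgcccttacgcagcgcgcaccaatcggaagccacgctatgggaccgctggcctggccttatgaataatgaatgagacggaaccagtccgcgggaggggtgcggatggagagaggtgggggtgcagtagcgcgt

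CACGTG on either strand was found in 7.15% of all 32851 promoter windows and in 9.52% of the 14269 windows of tested genes. It was in 8.97% of the windows of genes called higher in WT and in 9.64% of those called lower, so the letters were about as frequent in both directions. The D-box letters TTATGTAA, read on both strands, were in 0.938% of all windows and 0.540% of those of tested genes, in 13 windows of genes called higher in WT (1.36%) and in 3 of genes called lower (0.286%). The letters of the 2 motifs cannot overlap, and CACGTG reads the same on both strands. Over the clock lists, CACGTG was in 6 of 24 windows (25%), those of 5 of 18 genes, *Tef* among them, a description of genes chosen as clock genes. Neither motif was found in the windows of *Arntl*, *Arntl2*, *Clock*, *Npas2*, *Nr1d1*, *Nr1d2*, *Dbp*, *Hlf* or *Nfil3*. *Bhlhe40*, *Tcap* and *Per2* were not searched.

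Of the 3 muscle clock output genes, *Tcap* and *Mylk4* were higher in WT. *Tcap* encodes titin cap, a Z-disc protein, and had 29782, 35957, 31932, 35140.4 and 33923 in WT against 13516, 22502, 8441, 14925 and 11107 in KO+AAV (1.32, SE 0.24, adjusted *P* = 2.4e-04, limma). *Mylk4*, a myosin light chain kinase family member, had 40587, 32684, 33698, 35559 and 25750.0 in WT, 8291, 8347, 5598, 13675 and 7052 in KO+AAV, and 143, 66.3, 53.6, 248 and 639 in KO. KO+AAV muscle was therefore 4.05-fold below WT (2.02, SE 0.43, adjusted *P* = 0.0016) and above every KO library (5.74, adjusted *P* = 2.3e-10, and 5.45 without KO replicate 2, limma). *Myod1*, a myogenic regulator, had 324 to 495 in WT and 633 to 864 in KO+AAV, without overlap, yet was not called in the model of all gastrocnemius libraries (-0.73, adjusted *P* = 0.20). KO replicate 2 had 78.8 of *Myod1*, and without it the same difference was called (adjusted *P* = 0.0031, limma).

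**Figure D1:**
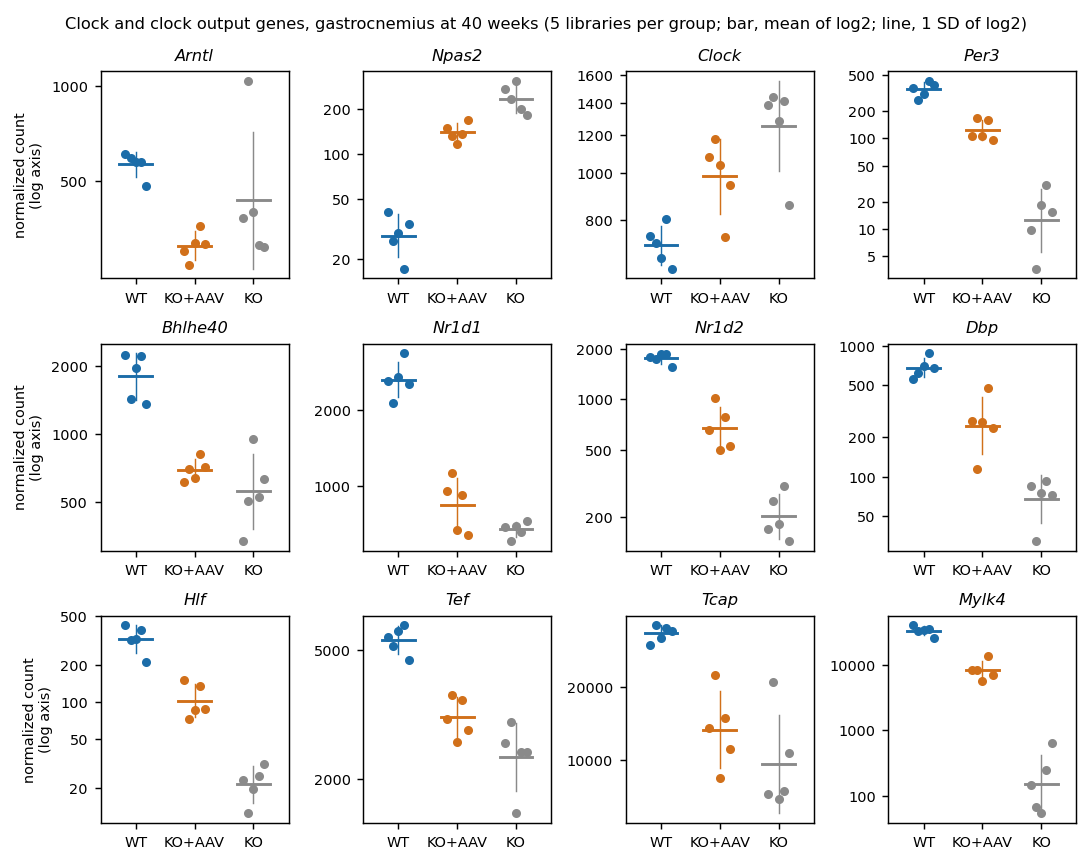
Normalized counts (log axis) of 12 clock and clock output genes in each 40-week gastrocnemius library of WT, KO+AAV and KO mice, 5 per group, with the mean of the log2 values as a bar and 1 SD as a line. *Per3*, *Nr1d2*, *Dbp*, *Hlf* and *Mylk4* show KO+AAV libraries between WT and KO, while those of *Nr1d1* lie at 640.0 to 1126, reaching into the KO range of 605 to 727.

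Among the genes with the smallest *P* and no overlap between groups, those higher in WT were led by a transcript that was nearly missing from KO+AAV muscle. *Gm10032*, a lincRNA on chromosome 14 (66784480 to 66793758, plus strand), had 40.0, 32.6, 26.5, 36.0 and 29.7 in WT, 2.81 in KO+AAV replicate 2 and 0 in the other 4 KO+AAV libraries. This is 110 reads against 2, a ratio of 61.9 after scaling (95% interval 16.7 to 517, counting error only). *Cacna2d4*, an auxiliary subunit of voltage-gated calcium channels, had 185, 208, 108, 191 and 164 in WT and 3.19, 0, 6.66, 15.3 and 5.99 in KO+AAV (5.03, SE 0.51, adjusted *P* = 3.9e-08, limma). *Ces1d*, a carboxylesterase that hydrolyzes lipid esters, was 15.5-fold higher in WT, at 438 to 712 against 12.6 to 73.2 (3.95, adjusted *P* = 3.2e-06). *Aldh1a1*, which makes retinoic acid from retinal, was 6.34-fold higher, at 2667 to 3724 against 384 to 679. *Klhl23*, a kelch-like family member, was 4.58-fold higher, and *Itpr1*, a receptor channel that releases calcium from internal stores, was higher by 1.59 on the log2 scale. In KO muscle *Cacna2d4* was at 0 to 2.76 and *Gm10032* at 0 in all 5 libraries. Both genes passed the filter, a mean count above 5, largely through WT, so their direction was in part fixed by the filter.

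Genes lower in WT included several with very even WT values. *Rab11b*, a small GTPase of recycling endosomes, had the smallest *P* of all genes, with 1030.4, 1008, 1071, 1060.2 and 1059.8 in WT and 2306, 2608, 2187, 1965 and 2265 in KO+AAV (-1.11, SE 0.07, adjusted *P* = 4.8e-12, limma). Its reads may be shared with the pseudogene *Rab11b-ps2*, and its KO level was 2357 to 2925. *Rps13-ps1*, with 2.97 to 17.5 in WT and 247 to 300.3 in KO+AAV (-4.64), is a processed pseudogene whose reads may come from *Rps13*, so that value is uncertain. *Dupd1*, a dual-specificity phosphatase of muscle, had 440.3, 328, 458, 374 and 367 in WT and 2931, 2933, 4489, 3851 and 5272 in KO+AAV, 9.68-fold more (-3.28, SE 0.22, adjusted *P* = 6.4e-12, limma). *Cilp*, a secreted matrix protein, was 31.1-fold lower in WT (366 to 761 against 10028 to 24844), and *Cpne2*, a calcium-dependent phospholipid-binding copine, was 10.4-fold lower. *Cx3cl1*, the chemokine fractalkine, had 28.2 to 73.5 in WT and 251 to 468 in KO+AAV (-2.97, adjusted *P* = 4.9e-09), and *Gas6*, the ligand of the TAM receptor kinases, had 1293 to 1548 against 2886 to 5027 (-1.41). *Tpra1* (-1.12) and *Pnrc2* (-1.38), the latter a nuclear receptor coactivator, were also lower in WT. All of these genes had KO levels that overlapped those of KO+AAV.

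**Figure D2:**
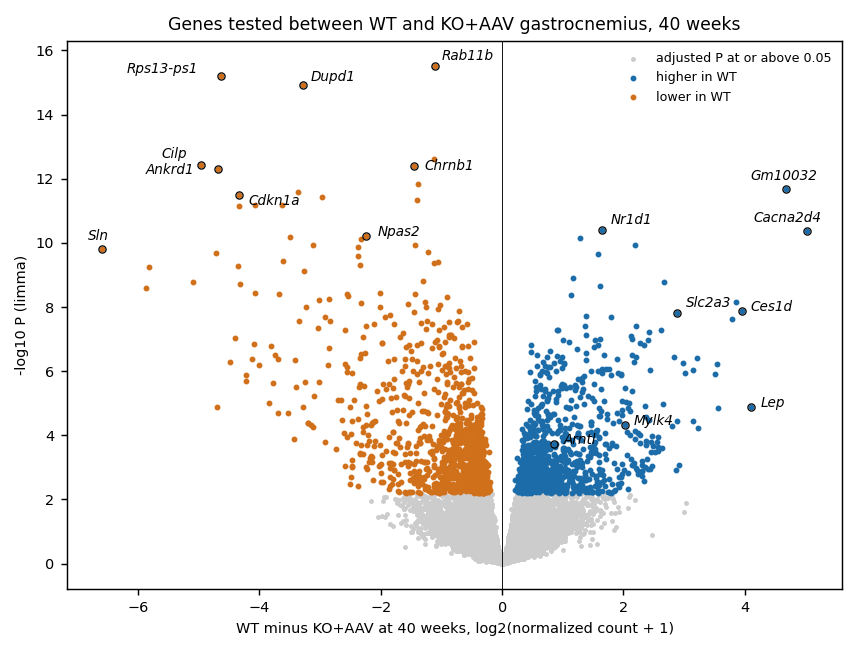
Difference between WT and KO+AAV gastrocnemius at 40 weeks (x axis, WT minus KO+AAV on the log2 scale) against -log10 *P* from limma (y axis) for the genes tested, with genes higher in WT in blue, lower in WT in orange and genes at or above an adjusted *P* of 0.05 in gray. *Rab11b* has the smallest *P*, and the called genes lie on both sides in similar numbers, 980 and 1038.

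Sarcomere genes moved in both directions. Of 22 Z-disc and thin filament genes, 2 were called higher and 7 lower in WT (median -0.32), against 979 and 1037 of the 16195 tested gene symbols. *Ankrd1*, a stretch-responsive ankyrin repeat protein of the I-band, had 160.1, 135, 142, 155 and 128 in WT and 1921, 3302, 5019, 4224 and 5336 in KO+AAV, 25.8-fold more (-4.69, SE 0.40, adjusted *P* = 1.2e-09, limma). *Xirp1*, an actin-binding protein of repair sites (-1.86), *Myot*, a Z-disc protein (-0.72), and *Actc1*, the cardiac α-actin of immature muscle (-2.22), were also lower in WT. Of 8 myosin heavy chain genes, 2 were called lower in WT, among them the embryonic *Myh3* (-3.85, adjusted *P* = 4.6e-04, limma), and 0 higher. Without WT replicate 5 or KO+AAV replicate 3, 1 myosin gene was called. None of 8 slow fiber genes and none of 12 muscle identity genes was called (medians -0.35 and 0.22), and the slow fiber median ran from -0.97 to 0.23 over single libraries left out, turning positive without WT replicate 1 or 3 or KO+AAV replicate 1 or 3.

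Of 21 excitation-contraction coupling genes, 3 were called lower in WT and 1 higher, *Cacna2d4*, whose direction was in part fixed by the filter. Among all genes tested, 6.05% were called higher and 6.41% lower. *Sln*, which encodes sarcolipin, an inhibitor of the SERCA calcium pump, had 17.8, 25.1, 7.08, 18.8 and 25.0 in WT and 669, 2121, 4717, 1694 and 1487 in KO+AAV, the largest difference among the genes named here (-6.59, SE 0.71, adjusted *P* = 9.4e-08, limma). *Casq2*, the calsequestrin of slow and cardiac muscle, was 5.58-fold lower in WT (-2.48), and *Pln*, phospholamban, another SERCA inhibitor, was lower by 2.60 on the log2 scale, though 65% of the gene overlaps another gene in the annotation. In KO muscle *Sln* was at 134 to 2695 and *Casq2* at 1673 to 5794. Without KO replicate 2 the KO mean of *Sln* was 1614 (SD 1006).

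Of 19 genes of denervation and the neuromuscular junction, 6 were called lower in WT and 0 higher (median -0.27). The share of all genes called lower was 6.41%. *Chrnb1*, the β subunit of the acetylcholine receptor, had 532, 452, 588, 589.5 and 506 in WT against 1382, 1500.3, 1401, 1339.7 and 1666 in KO+AAV (-1.45, SE 0.12, adjusted *P* = 1.1e-09, limma). The groups did not overlap, and KO muscle, at 1248 to 1922, covered the KO+AAV range. *Myog*, the myogenic factor that drives receptor genes, was 4.88-fold lower in WT (29.7 to 90.2 against 185 to 277), and *Gadd45a* (-2.01), *Runx1* (-2.37) and *Colq* (-1.50), which anchors acetylcholinesterase, were lower as well. *Gadd45a* overlaps another gene over 19% of its length.

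Genes of protein quality control were called lower in WT alone. Of 23 heat shock proteins and co-chaperones, 13 were called lower in WT and 0 higher, beside 6.41% of all genes called lower. The difference was negative for 21 of 23, and the median was -0.50. *Bag3*, the co-chaperone of chaperone-assisted autophagy, had 1658, 2309.6, 1834, 1825 and 2313 in WT and 3549.6, 4089.8, 4536, 3441 and 4120.5 in KO+AAV, 1.99-fold more (SE 0.15 on the log2 scale, adjusted *P* = 3.1e-05, limma). The small heat shock proteins *Hspb6* (-1.31), with 7545 to 11355 against 18529 to 30451, and *Hspb8* (-0.93), the partner of BAG3, and the HSP110 family member *Hspa4* (-0.42) were lower too. The number called ranged from 9, without KO+AAV replicate 2, to 14 over the analyses that left out 1 library. These lists were chosen with earlier results of these data known and are described here, not tested as sets.

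Every one of 27 proteasome subunit genes was lower in WT, with a median of -0.41. Of these 27, 13 were called, beside 6.41% of all genes called lower. *Psmb1*, a β subunit of the core particle, had 1259, 1343, 1474, 1299 and 1224 in WT and 1667, 2679, 1884, 1915 and 2015 in KO+AAV (-0.61, SE 0.12, adjusted *P* = 5.8e-04, limma), and *Psmc6*, an ATPase of the regulatory particle, had 1205 to 1487 against 1718 to 3288 (-0.57, adjusted *P* = 0.0023). KO+AAV replicate 2 was the highest library for both genes. Without it the median of the 27 genes was -0.26 and 9 were called, and over all single libraries left out 9 to 18 were called. In KO muscle *Psmb1* was at 1714 to 2865, overlapping KO+AAV. Without KO replicate 2 its KO mean was 1784 (SD 61.2).

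Of 13 p53 targets and senescence genes, 8 were called lower in WT and 0 higher (median -0.69). The shares of all genes called lower and higher were 6.41% and 6.05%. *Cdkn1a*, which encodes the cell cycle inhibitor p21, had 175, 378, 311, 231 and 255 in WT and 4015, 7844, 4548, 4225 and 6882 in KO+AAV, 20.2-fold more (-4.34, SE 0.40, adjusted *P* = 4.6e-09, limma). KO muscle had 3011 to 17567, with a mean of 6469 (SD 2789) without KO replicate 2. *Bbc3*, the proapoptotic PUMA, was 4.99-fold lower in WT (21.9 to 39.1 against 125 to 197), and *Eda2r*, a receptor of the TNF family, was lower by 1.99 on the log2 scale. Of 17 atrophy genes, *Cdkn1a* among them, 4 were lower and 1 higher in WT, and of 17 antioxidant and NRF2 target genes 3 were lower, led by the quinone reductase *Nqo1* (-0.73), and 1 higher. The single higher call of each list was lost without WT replicate 1, 3 or 4 or KO+AAV replicate 3 or 5.

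**Figure D3:**
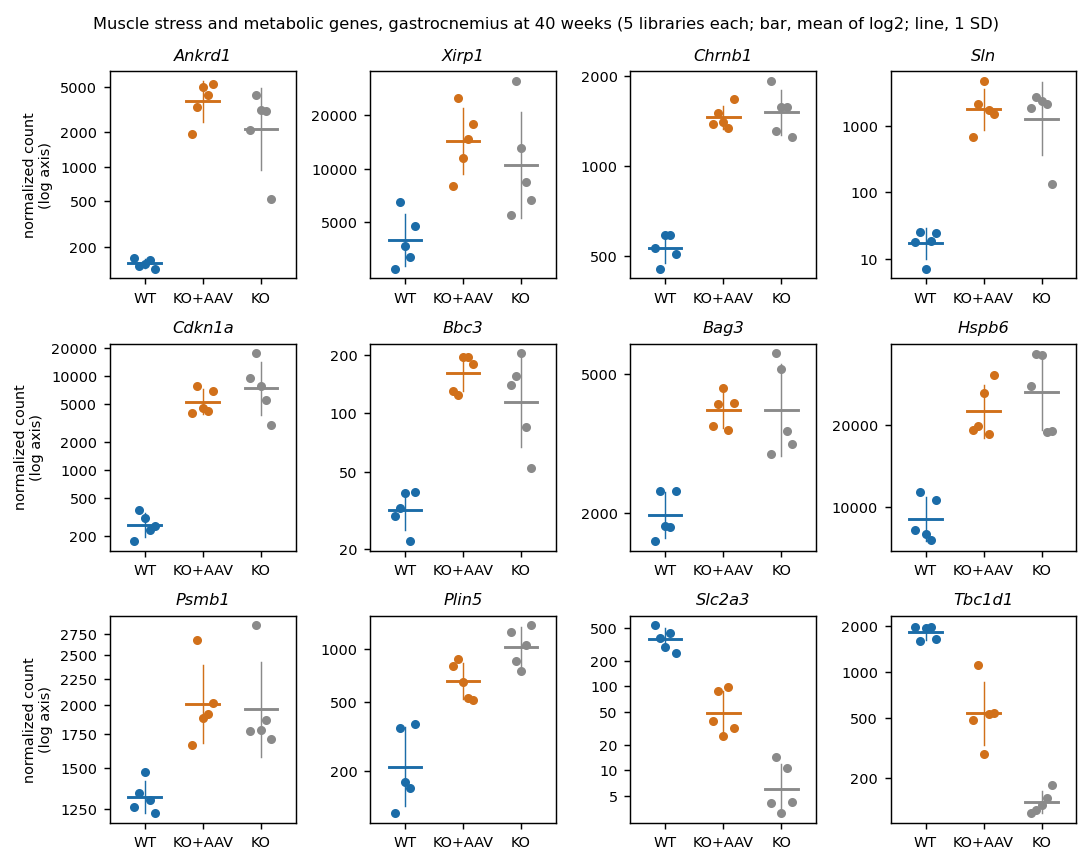
Normalized counts (log axis) of 12 muscle, stress and metabolic genes in each 40-week gastrocnemius library of WT, KO+AAV and KO mice, 5 per group, with the mean of the log2 values as a bar and 1 SD as a line. For *Ankrd1*, *Sln*, *Cdkn1a* and *Chrnb1* the KO+AAV libraries lie with the KO libraries, whereas for *Slc2a3* and *Tbc1d1* they lie between WT and KO.

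Of 12 glucose uptake genes, 3 were called higher in WT and 0 lower, beside 6.05% of all genes called higher. The difference was positive for 7 of the 12 and negative for 5, and the median was 0.11. *Slc2a3*, the glucose transporter GLUT3, had 539.7, 375, 292, 439 and 252 in WT, 38.3, 88.4, 25.5, 97.7 and 32.4 in KO+AAV and 3.07 to 14.3 in KO, a WT minus KO+AAV difference of 2.88 (SE 0.38, adjusted *P* = 3.5e-06, limma). *Tbc1d1*, a Rab GTPase-activating protein that restrains GLUT4 traffic, had 1956, 1581, 1942, 1973 and 1632 in WT, 479.8, 1098, 287, 529 and 538 in KO+AAV and 118 to 182 in KO (1.76, SE 0.29, adjusted *P* = 6.7e-05). Both were thus below WT and above KO in every KO+AAV library, with KO+AAV minus KO differences of 2.79 and 1.92 (adjusted *P* = 6.4e-05 and 3.2e-04, limma, and 3.07 and 1.88 without KO replicate 2). *Slc2a12*, another glucose transporter, was higher in WT by 0.88. Of 15 glycolysis genes, 4 were higher in WT and 0 lower (median 0.25), with *Pfkfb3*, a regulator of phosphofructokinase, at 3715 to 9223 in WT and 1145 to 2689 in KO+AAV (1.69, adjusted *P* = 0.0072, limma). The glycolysis count was 1 without WT replicate 1, 3 or 4 or KO+AAV replicate 3 or 5, near that share of all genes.

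Called fatty acid genes differed in the other direction. Of 26 genes of fatty acid uptake and oxidation, 9 were called lower in WT and 0 higher, beside 6.41% of all genes called lower. The difference was negative for 23 of 26, and the median was -0.45. *Plin5*, which tethers lipid droplets to mitochondria, had 114, 355, 173, 159.5 and 374 in WT and 800.1, 880.0, 644, 523 and 513 in KO+AAV (-1.63, SE 0.32, adjusted *P* = 6.8e-04, limma). The groups did not overlap, and KO muscle was at 745 to 1374. *Acsl1*, which activates long-chain fatty acids (-0.74), and *Hadhb*, the thiolase subunit of the mitochondrial trifunctional protein (-0.82), were also called. Without WT replicate 1 there were 5 called genes in this list, and over all single libraries left out 5 to 12.

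Counts of respiratory chain genes stand beside 6.05% of all genes called higher and 6.41% called lower in WT. Such small counts are not read as a result about these pathways. Of 36 complex I subunits 4 were higher in WT and 0 lower (median 0.00), of 22 genes of complexes III and IV 1 was higher (0 to 3 with single libraries left out), of 15 ATP synthase genes 1 was higher, of 17 TCA cycle genes 1 was lower, and of 12 genes of the mitochondrial genome 2 were higher (median 0.28). None of 14 genes of mitochondrial biogenesis and dynamics was called. The complex I count was 2 without WT replicate 2 or KO+AAV replicate 3 and at most 9 without another library, and no gene of the mitochondrial genome was called without WT replicate 2, 4 or 5 or KO+AAV replicate 2 or 5. Outside these pathways, the alanine transaminase *Gpt* (-1.07, adjusted *P* = 5.5e-05, limma) and the phospholipid acyltransferase *Agpat3* (-0.66, adjusted *P* = 7.7e-06) were lower in WT, members of lists of 20 amino acid genes (1 higher, 1 lower) and 18 phospholipid genes (0 higher, 2 lower). Lists of 14 glycogen and 13 pyruvate dehydrogenase genes had at most 2 genes called per direction, moving by up to 1 gene with single libraries left out.

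Called members of the imprinted growth, myokine and integrin lists were lower in WT, beside 6.41% of all genes called lower. Of 10 imprinted growth genes 3 were lower in WT, with *H19*, an imprinted noncoding RNA of growing muscle, at 1911 to 4183 in WT and 7370.2 to 30579 in KO+AAV (-2.35, SE 0.37, adjusted *P* = 4.0e-05, limma). Of 12 myokines 3 were lower, led by *Fst*, the myostatin antagonist follistatin (-1.74, adjusted *P* = 6.9e-04, and -1.91 without KO+AAV replicate 2), and of 14 integrins and cadherins 4 were lower, led by *Itga7*, the laminin receptor of muscle fibers (-0.53). Without KO+AAV replicate 3 or 5, 1 myokine and 1 integrin or cadherin gene were called, near that share. Lists of 21 collagen and matrix genes, 15 myogenic regulators and TEAD factors, 15 glucocorticoid response genes, 10 genes of the integrated stress response and 10 inflammatory cytokine and STAT3 genes each had at most 2 genes called per direction, and these counts moved by up to 1 gene with single libraries left out. None of 13 interferon response genes was called.

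Markers of fibroblasts, and single markers of other cells, differed with the comparison. Of 8 fibroblast markers, 5 were called higher in WT and 0 lower, beside 6.05% of all genes called higher. Their median was 1.20, and the called genes included *Dpt* (1.62), *Gsn* (1.33) and *Clec3b* (1.48). *Dpt*, the matrix protein dermatopontin, had 405, 523, 536, 644 and 445 in WT and 171, 58.9, 211, 208 and 267 in KO+AAV (SE 0.33, adjusted *P* = 9.6e-04, limma). The summed normalized count of the 8 markers was 13375 to 17052 in WT and 3371 to 8784 in KO+AAV, with no overlap, and without KO+AAV replicate 2 the number called was 3. In bulk muscle, fewer cells of a type, less RNA per cell and a change in single marker genes cannot be told apart. Of 21 collagen and matrix genes, 2 were called higher and 2 lower in WT (median -0.17), beside 6.05% and 6.41% of all genes. None of 7 tenocyte markers was called (median -0.42). Of 10 lymphocyte and plasma cell markers, 8 failed the filter on low counts. *Ighm*, the heavy chain of IgM, was higher in WT (1302 to 2311 against 102 to 774). *Cd3e*, a chain of the T cell receptor complex, had 25.0 to 34.1 against 0 to 9.16 and passed the filter largely through WT, so its direction was in part fixed by the filter and no count over this list is read. Their list sum was 1358 to 2360 in WT and 109 to 810 in KO+AAV, and *Cd8a* was at 0 in all WT libraries. *Lep*, the adipocyte hormone leptin, was the only one of 9 adipocyte markers called (WT 53.4, 352, 278, 421 and 37.5, KO+AAV 7.97, 1.40, 6.66, 15.3 and 20.4), while the sum of the 9 overlapped between groups (2071 to 4880 and 2382 to 4012). Leptin was thus higher in every WT library than in every KO+AAV library.

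None of the markers of macrophages (12 genes, median 0.31), MHC class II (7, median -0.37), tenocytes (7), endothelium (7, median -0.19), smooth muscle and pericytes (6), Schwann cells (8, median -0.52), satellite cells (6), red blood cells (5 tested), neutrophils (1 tested) or hepatocytes (1 tested) was called. Of all genes, 12.5% were called. The MHC class II sum was 580 to 1152 in WT. In KO+AAV it was 250 in replicate 2 and 1140 to 1533 in the other libraries. The MHC class II median ran from -0.97 to -0.15 over single libraries left out. All 8 Schwann cell markers had a negative difference, with sums of 1583 to 5768 in WT and 1234 to 6444 in KO+AAV. The sign of the macrophage median rested on KO+AAV replicate 2, without which it was -0.15. The part of these cells in the muscle results was not tested.

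**Figure D4:**
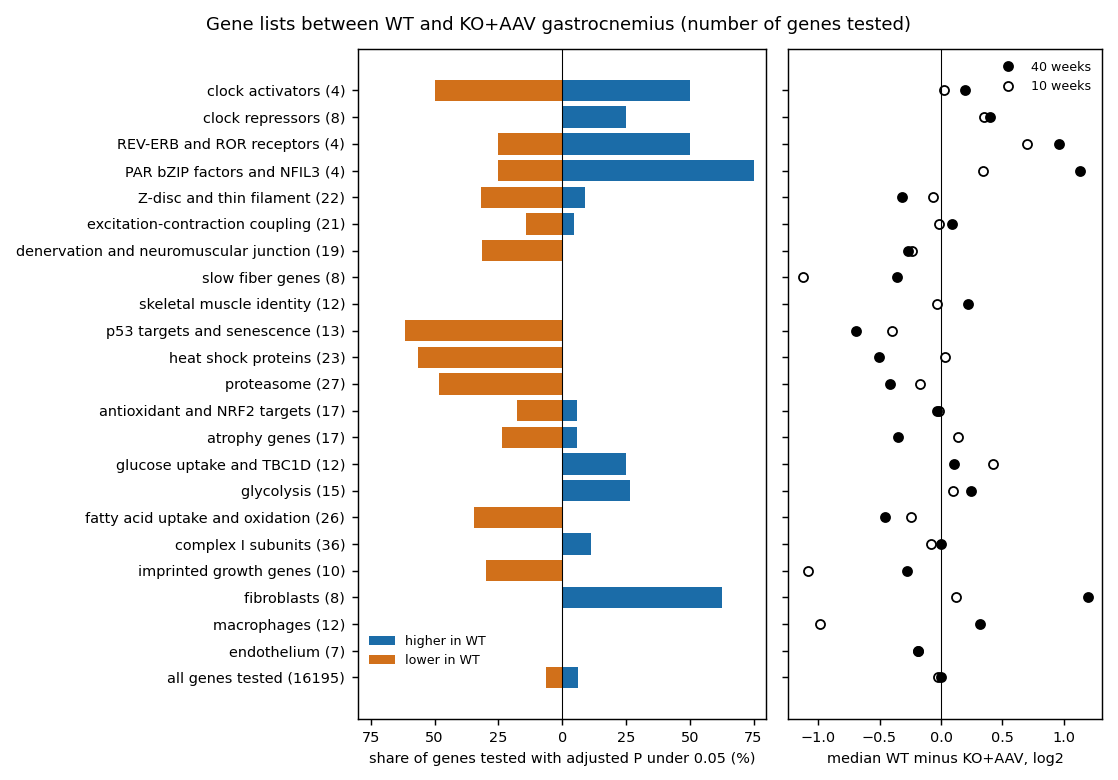
Left, share of each list's tested genes called higher (blue, to the right) or lower (orange, to the left) in WT than in KO+AAV gastrocnemius at 40 weeks. Right, median WT minus KO+AAV difference of the list on the log2 scale at 40 weeks (filled) and, from separate libraries, at 10 weeks (open), with all genes tested on the last line. Heat shock and proteasome genes are called on the low side alone, 13 of 23 and 13 of 27, and fibroblast markers on the high side, 5 of 8.

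Genes near *Arntl* on chromosome 7 were also counted. Leaving out *Arntl*, 14 of 64 tested genes within 5 Mb were called (21.9%, 10 higher and 4 lower in WT), 32 of 156 within 10 Mb (20.5%, 19 and 13) and 59 of 399 within 20 Mb (14.8%, 31 and 28), beside 12.5% of all genes. The numbers higher in WT rested in part on single libraries, with 6 within 5 Mb without WT replicate 1 or 4 or KO+AAV replicate 2 or 3, 12 within 10 Mb without WT replicate 4 or KO+AAV replicate 2 or 3, and 20 within 20 Mb without WT replicate 3 or 4 and 18 without KO+AAV replicate 2. The number lower in WT within 20 Mb was 20 without KO+AAV replicate 3. Counts over all genes fell too, with 980 genes called higher in WT and 715 without WT replicate 4. The medians in these windows were 0.05, 0.08 and -0.00.

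The same 2 groups were also sequenced at 10 weeks, in 6 WT and 7 KO+AAV libraries from 2 sites, none of which enters the 40-week comparison. Fitted alone with site as a covariate, they gave 1525 of 16078 genes at *P* under 0.01 (9.49%) and 873 called (5.43%). Of the 2018 genes called at 40 weeks, 1976 were tested at 10 weeks. Of these, 1708 differed in the same direction (86.4%, against 64.2% of all genes), 623 did so at *P* under 0.01 (31.5%, against 8.41%), and 6 had the opposite direction at that limit. The differences were smaller at the younger age, with a median of 0.74 at 40 weeks and 0.29 at 10 weeks for genes called higher in WT, and -0.71 and -0.23 for those called lower. Since called genes were selected for their size at 40 weeks, a smaller median in other libraries is a description. Among the clock genes, *Nr1d1* (1.76), *Npas2* (-1.79), *Tcap* (1.28) and *Mylk4* (1.73) had 10-week differences close to those at 40 weeks, whereas *Per3* had 0.17, with a mean of 229.7 ± 57.4 in WT (SD, n = 6) and 202 ± 47.1 in KO+AAV (SD, n = 7). The difference between ages for *Per3* (1.29, SE 0.47) did not pass the threshold (adjusted *P* = 0.25, limma).

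The change of the WT minus KO+AAV difference with age was tested as an interaction, and 104 genes passed (0.642%), 23 in which it was larger at 40 weeks (0.142%) and 81 in which it was smaller or more negative (0.5%). At *P* under 0.01 there were 668 (4.12%). Without WT replicate 4 or KO+AAV replicate 5 the 104 became 67 and 53. *Dupd1* had a difference of -3.28 at 40 weeks and of -0.76 at 10 weeks, when WT had 858 ± 342 (SD, n = 6) and KO+AAV 1483 ± 518 (SD, n = 7), and the interaction was -2.51 (SE 0.30, adjusted *P* = 2.3e-05, limma). *Cx3cl1* went from -0.24 at 10 weeks to -2.97 (interaction -2.73, adjusted *P* = 1.5e-04). *Ankrd1* and *Cdkn1a* were lower in WT at 10 weeks too (-2.41 and -2.03), and *Sln* had -1.74 there without passing the threshold (adjusted *P* = 0.11). *Sln*, *Ankrd1* and *Cdkn1a* had interactions of -4.82, -2.28 and -2.31 (adjusted *P* = 0.010, 0.034 and 0.030, limma). In the other direction, *Castor2*, a CASTOR family gene of the mTORC1 pathway, was higher in WT by 0.98 at 40 weeks. Its difference at 10 weeks was -0.22 (interaction 1.19, SE 0.20, adjusted *P* = 0.0027, limma). *Lsp1*, an actin-binding protein of leukocytes, had 1.04 and -0.28 (interaction 1.34, adjusted *P* = 0.0057, limma). *Lep* had the largest such change of the genes named, from -1.56 to 4.11 (interaction 5.69, SE 1.06, adjusted *P* = 0.0061). *Slc17a7*, a vesicular glutamate transporter, differed at 10 weeks (-3.28) and not at 40 (0.11).

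Heat shock genes were also counted as a list at both ages. At 10 weeks none of the 23 was called, beside 5.43% of all genes called at that age and 12.5% at 40 weeks. A count of 0 in so short a list is not read as a result. Their median was 0.03, beside -0.50 at 40 weeks. Of the 23, 3 passed the interaction test, beside 0.642% of all genes. They were *Bag3* (-0.88, adjusted *P* = 0.033, limma), *Hspb8* (-1.02, adjusted *P* = 0.047) and the testis-enriched HSP70 gene *Hspa1l* (-1.31, adjusted *P* = 0.010), the last named after its value was seen. Proteasome genes had a 10-week median of -0.17, fatty acid genes -0.24, p53 targets -0.40 and fibroblast markers 0.13, against -0.41, -0.45, -0.69 and 1.20 at 40 weeks. All 40-week libraries came from Novogene while the 10-week libraries came from 2 sites, and with the Novogene libraries alone, 3 against 3 at 10 weeks, 3 genes passed the interaction test, *Dupd1* (-2.43), *Cx3cl1* (-2.68) and *Sln* (-6.15).

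**Figure D5:**
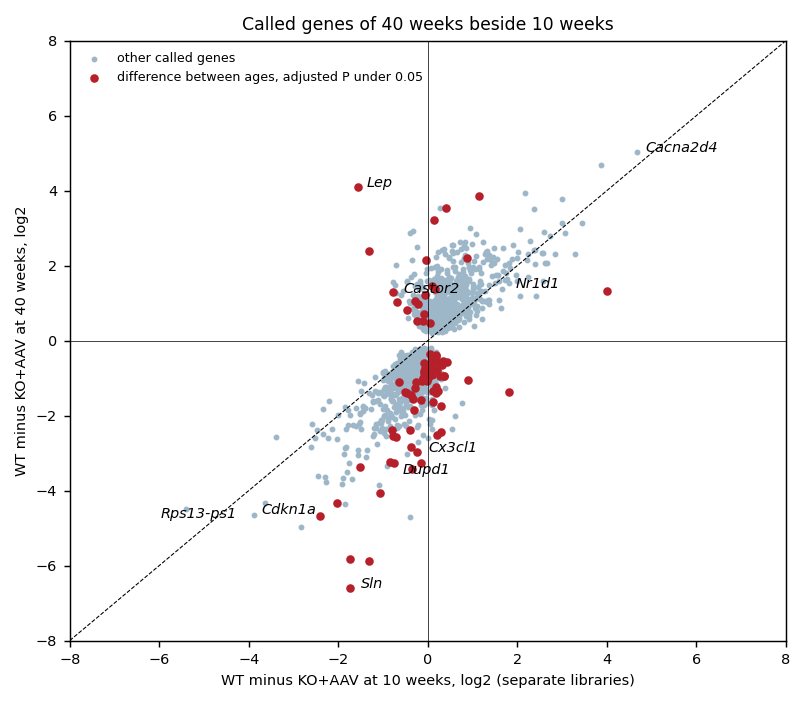
WT minus KO+AAV difference (log2) at 10 weeks, from separate libraries (x axis), against that at 40 weeks (y axis) for the genes called at 40 weeks, with the line of equal differences dashed and genes whose difference between ages passed an adjusted *P* of 0.05 in red. *Cacna2d4* and *Nr1d1* lie near the line, whereas *Dupd1*, *Cx3cl1* and *Sln* lie far below it and *Lep* above it.

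KO muscle of the same age is given beside both groups. WT and KO differed at an adjusted *P* under 0.05 for 3804 genes (23.5%), and KO+AAV and KO for 42 (0.259%), 36 of them higher in KO+AAV. Without KO replicate 2 these counts were 3181 and 44. WT and KO+AAV are each compared with the same KO libraries, so the values are given side by side only. Of the genes described here, *Per3*, *Nr1d2*, *Dbp*, *Hlf*, *Mylk4*, *Slc2a3* and *Tbc1d1* were called both in WT against KO+AAV and, with or without KO replicate 2, in KO+AAV against KO. *Nr1d1*, *Npas2*, *Tcap*, *Bhlhe40*, *Cacna2d4*, *Chrnb1*, *Ankrd1* and *Cdkn1a* were called against WT, with KO+AAV minus KO differences of 0.32, -0.74, 0.47, 0.31, 1.33, -0.05, 0.80 and -0.48 and adjusted *P* of 0.22 or more. Without KO replicate 2 these were 0.29, -0.74, 0.75, 0.28, 1.08, -0.10, 1.04 and -0.17, with adjusted *P* of 0.14 (*Tcap*) or more.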

How the data were processed

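Poly(A) RNA-Seq of gastrocnemius was taken from 1 table of 66 libraries and 55401 genes, in which the deposited signal values are, per the labels and the study's methods, reads aligned to GRCm38 with HISAT2, counted with HTSeq and divided by 1 DESeq2 size factor per library by the authors. Multiplying by that factor gave whole reads for every value (tolerance 0.01), from 9397642 to 13610317 per WT or KO+AAV library at 40 weeks. Annotation release and strand setting are not given in the sources used here. Coordinates are those of GENCODE vM21. These reads are not molecules, so intervals cover counting error only, and *P* values measure the spread between these samples.

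limma 3.58.1 (R 4.3.3, trended prior) was fitted to log2(normalized count + 1) for the 16199 genes whose mean exceeded 5. Its model had 6 groups, formed by the 34 gastrocnemius libraries, and a term for the sequencing site. Genes are called at a Benjamini-Hochberg adjusted *P* under 0.05, and the study's limit of *P* under 0.01 is given beside it. The difference between ages is an interaction in that model, and the 10-week values come from a model of their 13 libraries. *Arntl* was also tested by exact permutation. Members and gene lists were chosen with earlier results of these data known.

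Genes named are *Arntl*, the study's 14 qPCR genes, for either direction the 12 called genes of lowest *P* whose groups did not overlap, up to 4 called members of each list per direction, and the 6 called interaction genes of lowest *P* per direction. Not every gene the rule selects is printed. Alternatives were a pseudocount of 0.5, other filters, edgeR 4.0.16 and DESeq2 1.42.0 on the recovered reads, other size factors, library weights, fewer libraries in the model, the replicate number as a block and each library left out. Code was tested on simulated data. Lung, heart, liver, white fat and the GFP control experiment were not used here. The study removed genes that also differed with its GFP control vector, which were enriched for immune response. Such genes were not removed here.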

Additional observations from a re-analysis of the deposited data

Results flagged for a closer look

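In 8 of 160 groups of 5 libraries checked, 1 library lay apart from the other 4. Chance gives this in about 1 in 20 groups. KO+AAV replicate 2 was that library for *Cry2* (2515, others 756 to 1067), *Rora* (3142, others 919.6 to 1387), *Psmc6* (3288, others 1718 to 2075), *Fst* (135, others 223 to 258) and *Gm10032* (2.81, others 0). WT replicate 5 was low in *Arntl* (479.9, others 571 to 608), WT replicate 2 high in *Nfil3* (1050.1, others 427 to 561) and KO+AAV replicate 4 high in *Cd3e* (9.16, others 0 to 2.40).

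For 19 of the genes named, the WT minus KO+AAV difference changed with age by limma's interaction test with Benjamini-Hochberg adjustment. The naming rule took 6 genes per direction from this same test, and *Hspa1l* was named after its value was seen. The count of 19 is therefore no result of its own, and 0.642% of all genes passed the test. It was larger at 40 weeks for *Klhl23* (by 1.31), *Castor2* (1.19), *Lsp1* (1.34), *Lep* (5.69), *Slc17a7* (3.39) and *Cd3e* (3.12). It was more negative at 40 weeks for *Rab11b* (-0.46), *Dupd1* (-2.51), *Tpra1* (-0.86), *Ankrd1* (-2.28), *Pnrc2* (-0.87), *Cpne2* (-1.85), *Cdkn1a* (-2.31), *Cx3cl1* (-2.73), *Gas6* (-0.95), *Sln* (-4.82), *Bag3* (-0.88), *Hspb8* (-1.02) and *Hspa1l* (-1.31).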

How the results depend on the processing

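The 80 genes named above, 73 of them called, gave 1835 gene and alternative pairs. Of the called genes, 4 lost the call, in 23 pairs (*Arntl2* in 12, *Nfil3* in 7, *Clock* in 3 and *Psmc6* in 1). *Rora* and *Myod1* gained one in 9 pairs, and no called gene turned. The 2018 genes called at 40 weeks became 1131 (479 higher and 652 lower in WT) when the model held the 15 libraries of 40 weeks and 3165 (1590 and 1575) with library quality weights, and the cause was not tested. Leaving out 1 library gave 1539 to 1939 (715 to 939 higher, 801 to 1000 lower) and 2008 to 2297 at *P* under 0.01. Left out after the data had been seen, KO replicate 2 gave 2546, and KO+AAV replicate 2 in a model of the 10 libraries alone gave 2582.

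The 104 genes whose difference changed with age became 233 with DESeq2 (87 larger and 146 smaller at 40 weeks), 466 with library weights (163 and 303, and 1113 at *P* under 0.01) and 3 with the Novogene libraries alone (0 and 3, and 237 at *P* under 0.01). Leaving out 1 library gave 53 to 135 (11 to 37 larger, 40 to 101 smaller) and 526 to 734 at *P* under 0.01. The 31.5% of called genes with the same direction and *P* under 0.01 at 10 weeks became 18.7% with the Novogene and 16.2% with the ICBR libraries alone, which hold fewer samples. *Arntl* stayed between 0.81 and 0.92 without any 1 library.

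WT and KO+AAV libraries carry the same replicate numbers, but same-numbered libraries did not deviate together (correlations of -0.010, -0.006, -0.065, -0.005 and 0.090). No WT library correlated best with the KO+AAV library of its own number. With the number as a block, 1628 genes were called (826 higher and 802 lower) and 2124 had *P* under 0.01. Genes with few reads, such as *Gm10032*, are limited by depth, and 3 reads were taken as the floor.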
